A study of Mus musculus with 2 samples.

Results

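The collagen and laminin genes of the newborn mouse midbrain were read in total RNA from 2 pups. Members were the nuclear protein-coding genes whose symbol has the form of a collagen chain (such as Col1a1) or of a laminin alpha, beta or gamma chain (such as Lamb2). This gave 55 genes, 44 collagens and 11 laminins, of 21461 nuclear protein-coding genes and 69691 rows in the gene table. Both animals were of strain B6NCrl, with no treatment or engineered allele named in the labels, and were taken on postnatal day 0. They form 1 group, with pup 1 as replicate 1 and pup 3 as replicate 2, and each library holds the midbrain of a single pup. Sex was not collected, both pups carry the same donor identifier, and nothing was compared between conditions. The values therefore describe levels, ratios between genes and the spread between 2 animals (n = 2 for each SD), with no p-value.

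Collagens are built from chains that wind into a triple helix, which requires glycine at the head of each residue triplet, and laminins are cross-shaped trimers of an alpha, a beta and a gamma chain. Laminins and collagen IV form the sheets of the basement membrane, which nidogens and the proteoglycan perlecan help to link. In the brain these sheets surround blood vessels and underlie the pial surface, while fibrillar collagens belong mainly to the meninges and to the outer wall of larger vessels.

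The 2 libraries held 36934868 (pup 1) and 40769103 (pup 3) expected counts, which are the authors' estimates of the reads assigned to each gene. The members took 56857 counts in pup 1, or 0.154% (exact binomial 95% interval 0.153 to 0.155), and 61963 in pup 3, or 0.152% (0.151 to 0.153). Such intervals cover counting error only. Both pups had all 8 neuronal and all 8 astrocyte and radial glia markers at 1 TPM or more, where TPM is a level per length scaled to a fixed library sum. Of 10 midbrain markers 8 were at that level, with En2 (0.88 in pup 1 and 0.74 in pup 3) and Tal2 (0.29 and 0.33) below it. Markers of the hypothalamus and forebrain summed to 198 TPM in pup 1 and 426 TPM in pup 3, and all 9 of those read at 100 counts or more were higher in pup 3. The part of this difference in the values below was not tested.

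The repeated glycine can be read in the coding sequences. A stretch of 90 bases is shown from each of the 3 genes below: the highest fibrillar member, the main partner chain of collagen I, and the highest collagen IV member. The positions are bases 2038 to 2127 of the Col3a1 coding sequence, 2023 to 2112 of Col1a1 and 442 to 531 of Col4a1, from GENCODE M21 transcripts on mouse build mm10. Capitals mark the GGN (glycine) codons that open a codon triplet within an unbroken run of at least 3 such triplets.
Col3a1: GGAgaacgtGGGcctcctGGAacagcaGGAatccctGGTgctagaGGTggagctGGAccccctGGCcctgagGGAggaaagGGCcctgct
Col1a1: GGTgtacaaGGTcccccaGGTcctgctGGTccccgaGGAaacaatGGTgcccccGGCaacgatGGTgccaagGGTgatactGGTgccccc
Col4a1: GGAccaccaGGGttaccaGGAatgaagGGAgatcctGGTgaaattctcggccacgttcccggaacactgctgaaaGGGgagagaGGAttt
In Col3a1 and Col1a1 each of the 10 triplets opens with glycine. The Col4a1 stretch has 7 such triplets and was chosen to show an interruption, where the register is lost and then resumes. The longest unbroken run was 344 triplets in Col3a1 and 338 in Col1a1, and 9 members, all of the fibrillar class, had runs of over 300. The other fibrillar members, Col24a1 and Col27a1, reached 216 and 217. Collagen IV members had longest runs of 39 to 66 triplets, and in Col4a1 23 separate runs covered 79.7% of its 1669 codons. Laminins, which have no collagen helix, reached at most 3 triplets.

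**Figure D1:**
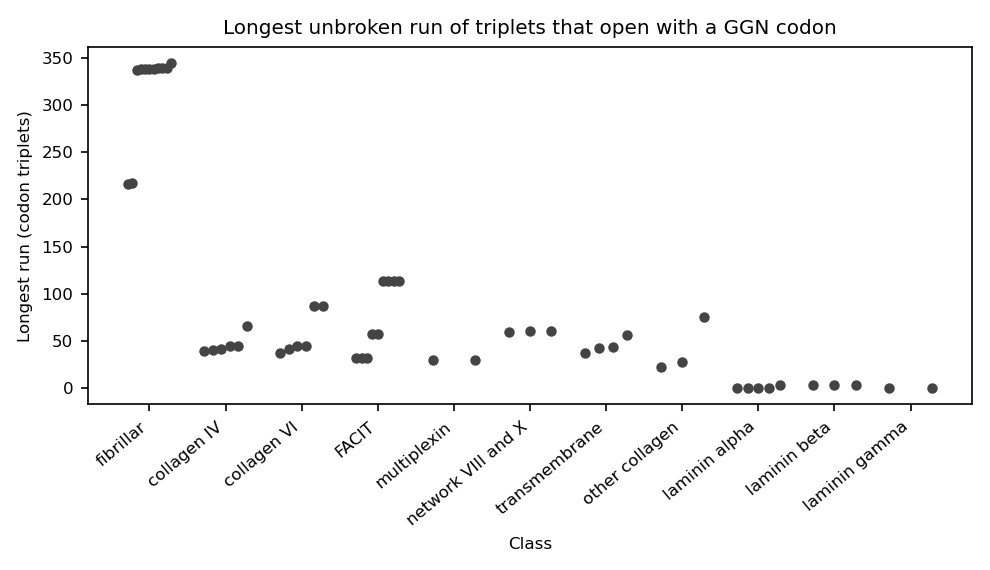
Longest unbroken run of codon triplets that open with a GGN codon (vertical axis, number of triplets) for the members (1 of 55 is not shown), grouped by class along the horizontal axis. 1 point is 1 gene. Fibrillar members lie at 216 to 344 triplets, the remaining collagens at 23 to 113 and the laminins at 0 to 3, where 0 stands for no run of at least 3 triplets.

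Fibrillar collagens held the largest summed level of the classes, and 39 of the 55 members reached 1 TPM in each of the pups. That is 70.9% of members, against 62.1% of all nuclear protein-coding genes. A further 15 members were under 1 TPM in both pups and Lamb3 lay on either side. No member had a count of 0 in either library, the lowest count being 4 for Col20a1 in pup 1. The median member was at 3.57 TPM in pup 1 and 3.81 TPM in pup 3, and the median of all nuclear protein-coding genes at 4.51 and 4.68 TPM. Together the members held 0.0621% ± 0.000372 of nuclear protein-coding TPM (SD, n = 2), and the 3 highest, Col3a1, Col1a1 and Col1a2, held 38.1% of the members' sum.

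**Figure D2:**
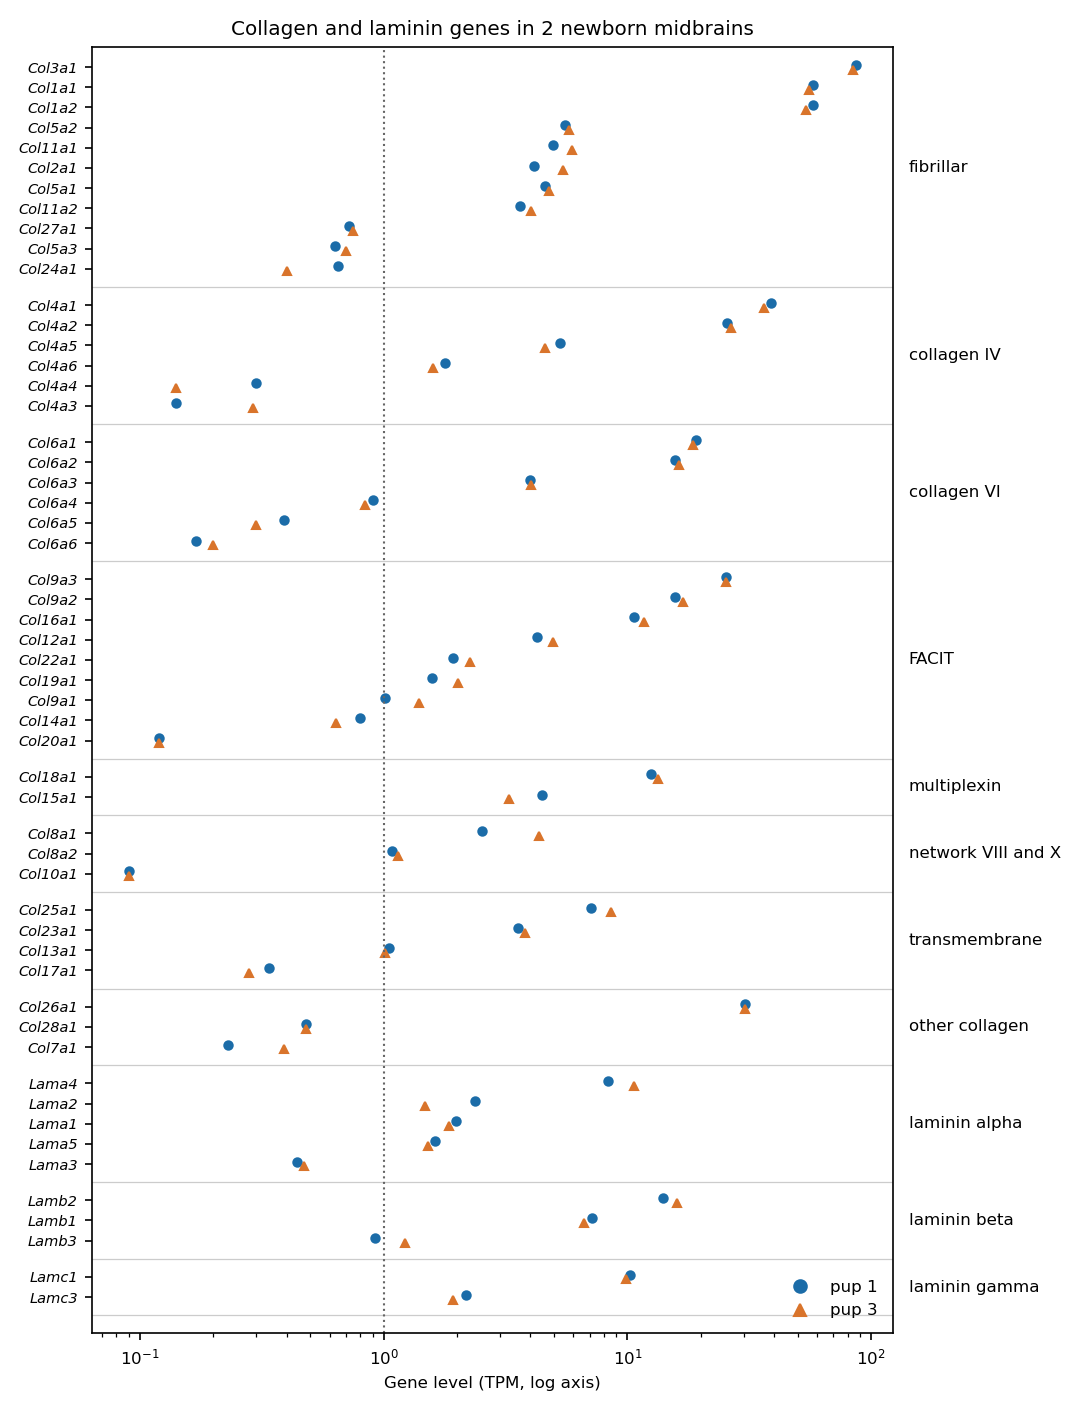
Level of the members (1 of 55 is not shown; horizontal axis, TPM, log axis) in pup 1 (circles) and pup 3 (triangles), ordered by class and by mean level. The dotted line marks 1 TPM. 3 fibrillar members lie above 50 TPM in both pups, and the 2 symbols of most genes at 1 TPM or more nearly coincide.

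Among the fibrillar collagens, which polymerise into banded fibres, a trio stood far above the rest. Col3a1, the only chain of collagen III (ENSMUSG00000026043.14, chromosome 1, 45311538 to 45349706, mm10), had 86.88 TPM in pup 1 and 83.85 TPM in pup 3. Col1a1 (ENSMUSG00000001506.10, chromosome 11, 94936224 to 94953042) was at 57.50 and 55.71 TPM, and Col1a2 (ENSMUSG00000029661.12, chromosome 6, 4504814 to 4541544) at 57.60 and 53.90 TPM. The products of Col1a1 and Col1a2 join in collagen I, and within each library their levels could not be told apart: the log2 ratio of Col1a1 over Col1a2 was 0.02 ± 0.04. Col3a1 exceeded Col1a1 by 0.59 ± 0.004 on the log2 scale, a steady ratio in both pups but under the size of 1 used here to call a pair apart. The size of this ratio depended on the reading. It was 0.28 on near-complete coding transcripts alone (defined below) and 0.23 by counts not divided by length. A pair was called apart where both pups had the same sign, the mean log2 ratio exceeded 1 and 3 SD, and the authors' credibility intervals did not overlap in either pup.

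The next fibrillar members were an order of magnitude lower. Col5a2 (5.55 and 5.78 TPM) and Col5a1 (4.61 and 4.78 TPM) encode chains of collagen V, which nucleates collagen I fibres. Col11a1 (4.96 TPM in pup 1, 5.91 in pup 3), Col2a1 (4.14 and 5.46) and Col11a2 (3.61 and 4.03) encode chains of the collagens best known from cartilage. Col5a1 and Col5a2, Col11a1 and Col11a2, and Col11a1 and Col2a1 were not apart, with log2 ratios of -0.27, 0.49 and 0.18. Only 2 of 10 cartilage and bone markers reached 1 TPM in both pups, Sox9 (30.1 and 31.1), which neural progenitors also express, and Cnmd (3.74 and 3.39), while the cartilage matrix genes Acan (0.24 and 0.22) and Matn1 (0.23 and 0.17) were low. Col27a1, Col5a3 and Col24a1 were under 1 TPM, the lowest being Col24a1 at 0.65 and 0.40. The 11 fibrillar genes summed to 224 ± 3.95 TPM.

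The meningeal fibroblast markers gave a reference for these levels. Of the 12 listed, 11 reached 1 TPM in each pup, and they summed to 252 TPM in pup 1 and 236 TPM in pup 3, led by the transporter Slc6a13 (55.6 and 52.3) and decorin, Dcn (45.1 and 41.4). All 8 endothelial markers were at 1 TPM or more, with sums of 191 and 166 TPM. In whole tissue, fewer cells of a type and less RNA per cell cannot be told apart, so no member can be assigned to a cell type here.

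Collagen IV, the network collagen of basement membranes, summed to 70.8 ± 1.82 TPM over 6 genes, most of it from one gene pair. Col4a1 (ENSMUSG00000031502.9, chromosome 8, 11198423 to 11312826) stood at 38.95 TPM in pup 1 and 36.20 TPM in pup 3. Col4a2 (ENSMUSG00000031503.9, chromosome 8, 11312805 to 11449287) was at 25.58 and 26.67 TPM. These are the chains of the common collagen IV trimer, and their log2 ratio was 0.60 in pup 1 and 0.44 in pup 3 (0.52 ± 0.12). Their credibility intervals did not overlap in either pup, but the ratio stayed under 1.

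The Col4a1 and Col4a2 genes lie head to head on opposite strands, their annotated starts 21 bases apart, and their first 22 bases overlap. By these annotated starts, the DNA before each start is not shared. Whether the 2 genes share a promoter was not tested. The windows below share bases because each also covers 50 bases after its start. Both are shown because these 2 members hold most of the class. The windows run from 250 bases before to 50 after each RefSeq start (build GRCm38.p6), chr8:11312777-11313076 on the minus strand for Col4a1 and chr8:11312555-11312854 on the plus strand for Col4a2, and overlap by 78 bases. Capitals mark matches to CCAAT and GGGCGG on either strand (ATTGG and CCGCCC are the reverse complements).
Col4a1: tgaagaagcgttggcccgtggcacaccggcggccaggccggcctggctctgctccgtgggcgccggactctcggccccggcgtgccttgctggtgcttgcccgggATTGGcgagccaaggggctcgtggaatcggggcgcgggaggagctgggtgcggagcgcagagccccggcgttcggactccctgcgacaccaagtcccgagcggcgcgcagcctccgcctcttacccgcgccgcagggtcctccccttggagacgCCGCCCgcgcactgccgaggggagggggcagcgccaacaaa
Col4a2: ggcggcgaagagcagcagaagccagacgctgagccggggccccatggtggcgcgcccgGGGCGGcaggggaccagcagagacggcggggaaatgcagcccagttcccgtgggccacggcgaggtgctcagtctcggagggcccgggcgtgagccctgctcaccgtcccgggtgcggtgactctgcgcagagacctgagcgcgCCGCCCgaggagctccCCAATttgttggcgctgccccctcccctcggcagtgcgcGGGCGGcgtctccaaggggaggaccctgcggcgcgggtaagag
The Col4a1 window held 1 CCAAT and 1 GGGCGG match, and the Col4a2 window 1 and 3. The GGGCGG match of the Col4a1 window lies in the shared stretch. Neither window held TATAAA on either strand. Among all 32851 windows, 37.4% held CCAAT, 35.7% GGGCGG and 13.6% TATAAA. Windows were found for 40 members (44 windows), of which 14 held CCAAT, 26 GGGCGG and 5 TATAAA. These letter matches describe the windows and do not show that a factor binds.

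The other collagen IV genes are also arranged head to head, as Col4a4 with Col4a3 (71 bases between them) and Col4a6 with Col4a5 (1308 bases). Their levels were lower. Col4a5 was at 5.31 TPM in pup 1 and 4.59 TPM in pup 3, and Col4a6 at 1.78 and 1.60 TPM; the pair was apart, with a log2 ratio of 1.49 ± 0.04, although the ratio was 0.69 when read from the near-complete coding transcripts alone. Col4a1 exceeded Col4a5 by 2.90 ± 0.07 (3.71 on coding transcripts). Col4a4 (0.30 and 0.14 TPM) and Col4a3 (0.14 and 0.29 TPM), chains of the kidney and cochlear collagen IV, were near the bottom of the class, and their order differed between the pups. Members that neighbour each other could be close in level, as Col6a2 and Col6a1 (16.0 and 18.8 TPM on average, 85161 bases apart), or far apart, as Col3a1 and Col5a2 (85.4 and 5.67 TPM on average, 24614 bases apart).

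Laminin chains were lower than collagen IV, summing to 54.5 ± 1.70 TPM over 11 genes, and Col4a1 exceeded Lamc1 by 1.90 ± 0.04 on the log2 scale (2.64 on coding transcripts). Among the beta chains, Lamb2 (ENSMUSG00000052911.5, chromosome 9, 108479736 to 108490530) stood highest, with 14.03 TPM in pup 1 and 15.91 TPM in pup 3. Lamb1, the other widely used beta chain, was at 7.15 and 6.61 TPM. The log2 ratio of Lamb2 over Lamb1 was 0.96 and 1.25 (1.11 ± 0.21), which passed the call narrowly and was under 1 in pup 1 and on coding transcripts (0.84). Lamb3, best known from skin, was at 0.92 and 1.22 TPM.

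Among the gamma chains, Lamc1, which most laminin trimers contain (ENSMUSG00000026478.10, chromosome 1, 153218922 to 153332786), stood at 10.21 TPM in pup 1 and 9.83 TPM in pup 3. It exceeded Lamc3 (2.17 and 1.93 TPM) by 2.24 ± 0.08 and was not apart from Lamb1 (0.54 ± 0.04). On coding transcripts these ratios were 1.49 and -0.10.

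Of the alpha chains, which carry most sites for cell receptors, Lama4, found in vessel walls, was highest at 8.32 TPM in pup 1 and 10.67 TPM in pup 3. Lama2, best known from muscle and also made in brain vessels, was at 2.38 and 1.48 TPM. Lama1, a chain of the pial basement membrane, was at 1.98 and 1.86 TPM, and the order of Lama2 and Lama1 differed between the pups (log2 ratios of 0.25 and -0.31, with a mean of -0.92 on coding transcripts). Lama5, of mature vessels and epithelia, was at 1.63 and 1.52 TPM, and Lama4 exceeded it by 2.51 ± 0.32 on the log2 scale (3.94 on coding transcripts, 3.32 by counts not divided by length). Lama3, of epidermal laminin, was lowest at 0.44 and 0.47 TPM. The 5 alpha chains summed to 15.4 ± 0.884 TPM and the 3 beta chains to 22.9 ± 1.16 TPM.

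**Figure D3:**
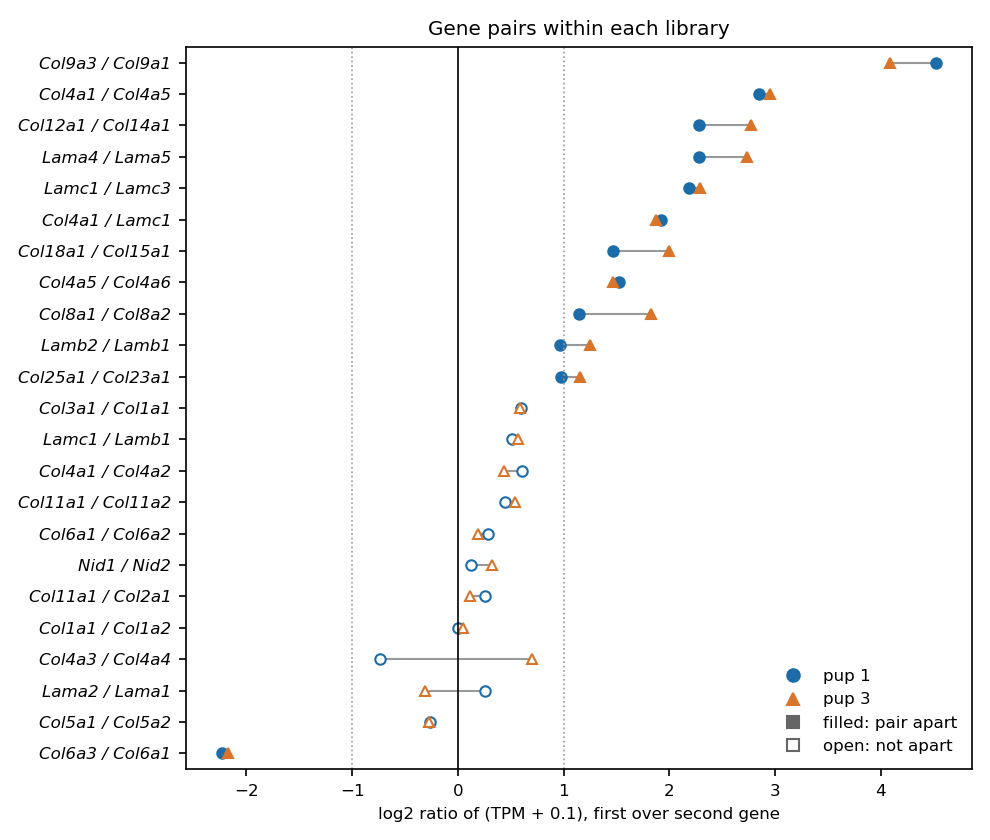
Log2 ratio of the first over the second gene of each pair (horizontal axis, TPM + 0.1) in pup 1 (circles) and pup 3 (triangles), with dotted lines at -1 and 1. Filled symbols are the 12 pairs called apart and open symbols the 11 that were not; Col9a3 over Col9a1 lies farthest right at 4.31 and Col6a3 over Col6a1 farthest left at -2.20.

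Of the 23 pairs, 12 were apart and 11 were not. Collagen VI, which forms beaded filaments near cell surfaces, held the only pair that was apart with its first gene lower. Col6a1 (19.13 TPM in pup 1 and 18.52 TPM in pup 3) and Col6a2 (15.65 and 16.26 TPM) were close, at a log2 ratio of 0.24 ± 0.07. Col6a3, the third chain of the common trimer, was at 3.99 and 4.02 TPM, -2.20 ± 0.04 relative to Col6a1 (-3.29 on coding transcripts). The alternatives to Col6a3, which are Col6a4, Col6a5 and Col6a6, were all under 1 TPM, the lowest being Col6a6 at 0.17 and 0.20. The class summed to 40.2 ± 0.0636 TPM.

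The FACIT collagens, which have interrupted helices and bind to the surface of fibres, were led by collagen IX. Col9a3 was at 25.46 TPM in pup 1 and 25.42 TPM in pup 3, and Col9a2 at 15.64 and 16.96 TPM. The third collagen IX chain, Col9a1, was at only 1.01 and 1.40 TPM, so that Col9a3 exceeded it by 4.31 ± 0.31 on the log2 scale, the largest ratio among the 23 pairs (3.59 with a pseudocount of 1). Counts of Col9a3 were not whole numbers, as occurs where reads are shared between features. Col16a1 followed at 10.60 and 11.69 TPM. Col12a1 (4.27 and 4.97 TPM) exceeded its relative Col14a1 (0.80 and 0.64 TPM) by 2.53 ± 0.35, a ratio of 1.40 on coding transcripts and of 1.71 with a pseudocount of 1. Col22a1 and Col19a1 were at 1.58 to 2.26 TPM, and Col20a1 was lowest at 0.12 in each pup.

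Col26a1, an EMI domain protein with short collagen stretches (ENSMUSG00000004415.11, chromosome 5, 136741759 to 136883209), stood at 30.26 TPM in pup 1 and 30.23 TPM in pup 3. It was the fifth highest member, above Col4a2, and its SD of 0.0212 TPM was small. Col28a1, at 0.48 in each pup, and Col7a1 (0.23 and 0.39), of the anchoring fibrils of skin, were low. Among the multiplexins, which carry sugar chains in basement membranes, Col18a1, the precursor of endostatin, was at 12.45 and 13.33 TPM. It exceeded Col15a1 (4.45 and 3.26 TPM) by 1.73 ± 0.38, a ratio of 2.81 on coding transcripts and of 2.50 by counts not divided by length.

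The transmembrane collagens were led by Col25a1, a neuronal membrane collagen, at 7.11 TPM in pup 1 and 8.60 TPM in pup 3. Col23a1 was at 3.57 and 3.81 TPM, and the ratio of 1.06 ± 0.13 passed the call but was 0.97 in pup 1 and 0.66 on coding transcripts. Col13a1, of the neuromuscular junction, was at 1.05 and 1.01 TPM, and Col17a1, of skin hemidesmosomes, at 0.34 and 0.28 TPM. Col8a1, a short-chain collagen of vessel walls and of the cornea, was at 2.52 and 4.35 TPM, above Col8a2 (1.08 and 1.15 TPM) by 1.49 ± 0.48. That call was lost with posterior mean TPM (1.27), where the mean did not exceed 3 SD. Col10a1, which marks hypertrophic cartilage, was lowest of all members at 0.09 in each pup.

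Genes that build, anchor and bind these proteins were read alongside them: 66 of 79 listed partners reached 1 TPM in each pup. Across all nuclear protein-coding genes that share was 62.1%, which stands beside each of the list counts below. For folding and modification of collagen it was 21 of 22 genes, led by the prolyl isomerase Ppib (269 TPM in pup 1, 267 in pup 3), P4hb, a subunit of prolyl hydroxylase and a disulfide isomerase (181 and 166), and the collagen chaperone Serpinh1 (98.2 and 89.2). The lowest was P3h2 (0.37 and 0.36). For basement membrane partners it was 12 of 13, led by Sparc, which binds collagen (590 and 530), agrin, Agrn (62.0 and 65.6), and Fbln1 (41.3 and 39.3), with Ntn4 lowest (0.42 and 0.53). The nidogens Nid1 and Nid2, which link laminin to collagen IV, were not apart (0.22 ± 0.14).

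Processing follows secretion of the folded trimer. For procollagen processing and crosslinking the count was 10 of 13, led by Pcolce, an enhancer of procollagen cleavage (16.7 TPM in pup 1, 14.2 in pup 3), the protease Bmp1 (11.6 and 12.2) and the crosslinking enzyme Loxl1 (5.54 and 5.89), with Loxl4 lowest (0.09 and 0.08). For receptors it was 12 of 18, led by Adgrg1, which binds collagen III in the developing cortex (79.2 and 73.9), dystroglycan, Dag1, a laminin receptor (66.8 and 67.6), and the integrin subunit Itgb1 (49.1 and 50.8). Gp6, the platelet collagen receptor, was listed at 0 in both pups. For matrix degradation it was 11 of 13, led by the cathepsin Ctsb (186 and 168), the inhibitor Timp2 (110 and 119) and the membrane protease Mmp16 (37.3 and 46.5), with Mmp13 lowest (0 and 0.06).

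A gene's TPM sums over all its annotated transcripts, and short noncoding or truncated transcripts weigh heavily in it because a few reads on a short length give a high TPM. For this reason each gene was also read from its near-complete coding transcripts, those annotated protein-coding with at least 50% of the gene's longest coding sequence. These carried a median of 87.4% of the TPM of the members at 1 TPM or more (96.7% over all such protein-coding genes) and 97.6% of the members' counts. In 6 of 39 members (15.4%, against 12.5% of all such genes) they carried under 50%.

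**Figure D4:**
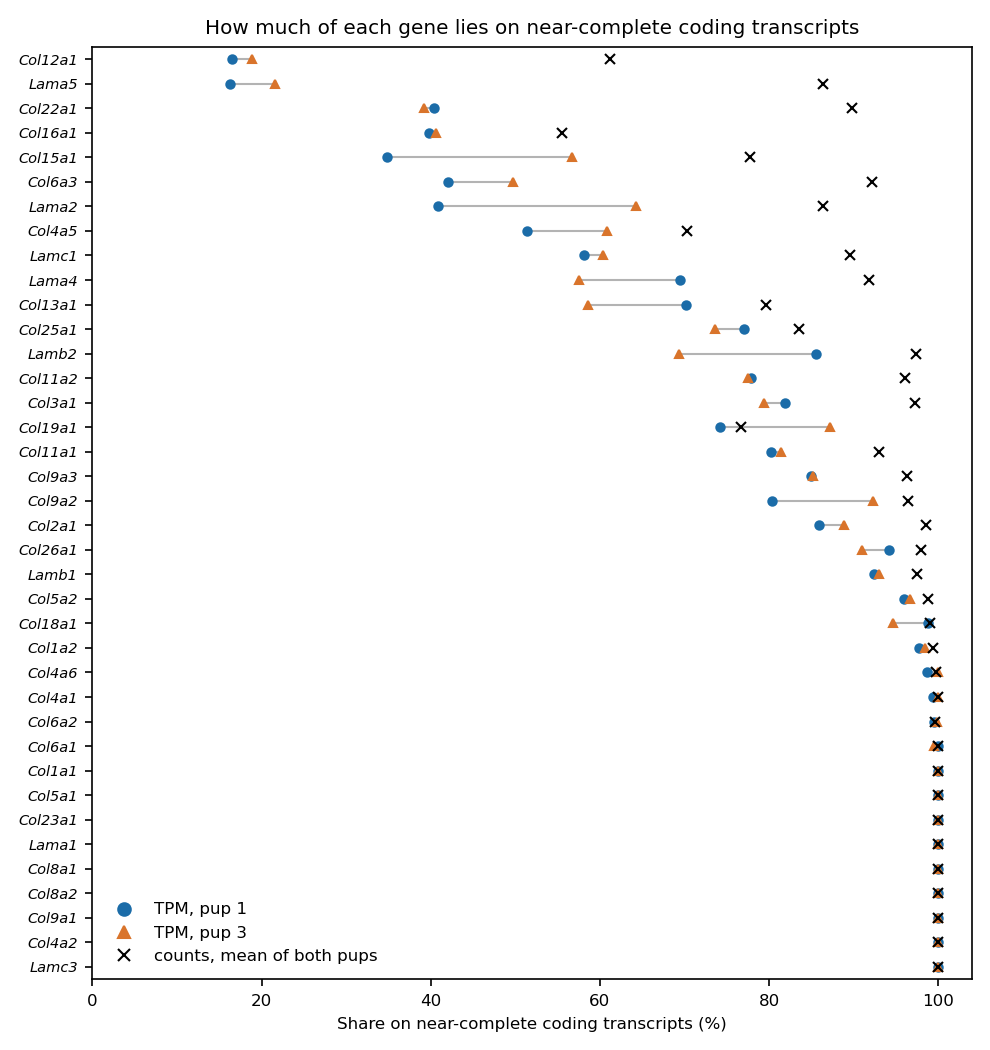
Share of each gene's level on near-complete coding transcripts (horizontal axis, percent) for the 39 members that reached 1 TPM in each pup (1 is not shown). Circles (pup 1) and triangles (pup 3) are shares of TPM and crosses are shares of expected counts, averaged over the pups; Col12a1 and Lama5 lie lowest by TPM, at 17.7% and 18.9% on average, while their shares of counts are 61.3% and 86.4%.

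Col12a1 and Lama5 changed most in this reading. The full-length Lama5 transcript of 3718 codons was at 0.26 TPM in pup 1 and 0.33 TPM in pup 3 with 68.9 and 93.9 counts, while a 478-base processed transcript held 76.3% and 27.5% of the gene's TPM on 10.9 and 4.01 counts. Col12a1 was at 0.71 and 0.93 TPM from near-complete transcripts, of a gene level of 4.27 and 4.97, and Col6a3 at 1.67 and 2.01, of 3.99 and 4.02. In Col6a3 a 646-base retained intron led in both pups, with 54.5% and 48.4% of TPM on 27.5 and 26.9 counts. The others under 50% were Col15a1, Col16a1 and Col22a1. Lama2 was at 0.98 TPM in pup 1 and 0.95 TPM in pup 3 when read this way, where the gene levels were 2.38 and 1.48. A 643-base retained intron had 56.6% of Lama2 TPM in pup 1 and 3.28% in pup 3, on 17.0 and 0.67 counts. Read this way 34 members reached 1 TPM in each pup.

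Of the 37 members at 1 TPM or more with more than 1 transcript, 32 (86.5%, against 91% of all such protein-coding genes) had the same leading transcript by TPM in both pups. The exceptions were Col12a1, Col22a1, Col4a5, Lama2 and Lama5, and ranked by expected counts all 37 had the same leader. In 2 of the 37 (5.41%, against 9.87% of all such genes), Col6a3 and Lama5, the leader by mean share of TPM is not annotated as protein-coding. Some members used alternative coding transcripts. Col18a1, whose forms differ at the start of the protein, was read mainly as the 1315-codon form, with 92.4% of its TPM in pup 1 and 86.6% in pup 3. Col2a1 was split between a 1487-codon form (45.3% and 66.3%) and a 1419-codon form (40.7% and 22.6%), with the longer one ahead in each. Col9a1 was mainly the short 680-codon form (90.5% and 81.2%) over the 921-codon form (9.51% and 18.8%).

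Between the 2 pups the members differed about as much as other genes. Of 36 members with a mean count of 100 or more, 0 differed by more than 1 on the log2 scale, against 0.198% of 12607 protein-coding genes (0.0635% higher in pup 1 and 0.135% higher in pup 3). The median size of the difference was 0.11 for members and 0.11 for all genes tested. Pup 1 was higher for 15 members and pup 3 for 21, with a median of -0.05 (pup 1 minus pup 3), against -0.02 for all genes. The credibility intervals did not overlap for 4 members (11.1%, against 20.6% of all genes). Of these, Col1a2 (0.10) and Col4a1 (0.11) were higher in pup 1, and Col25a1 (-0.27) and Col8a1 (-0.76) in pup 3.

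**Figure D5:**
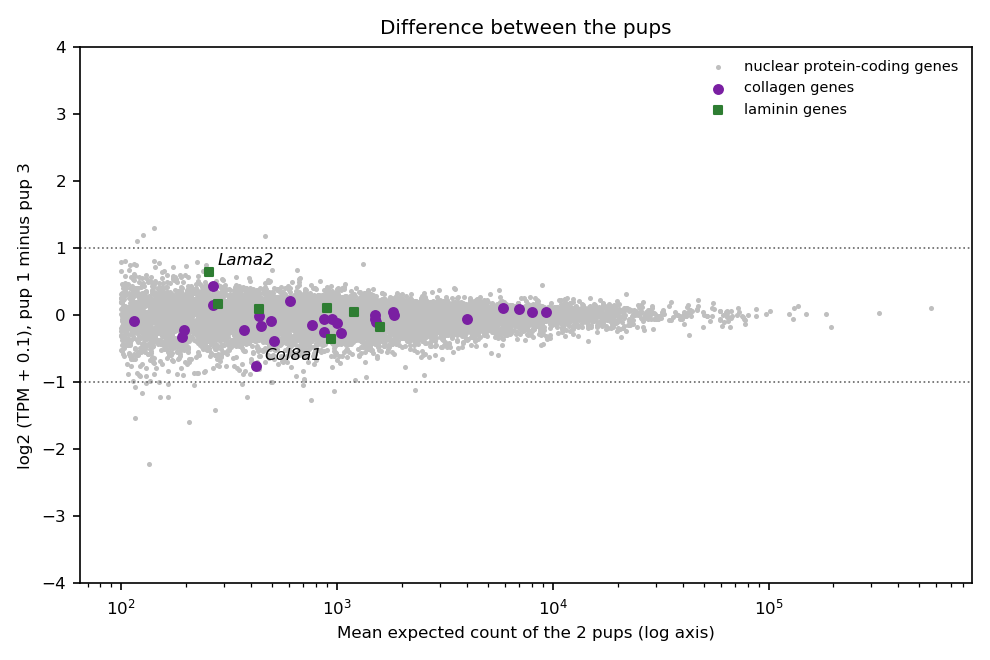
Difference between the pups (vertical axis, log2 of TPM + 0.1, pup 1 minus pup 3) against the mean expected count (horizontal axis, log axis) for collagens (circles), laminins (squares) and all nuclear protein-coding genes at 100 counts or more (small grey dots; 4 genes lie beyond the axis). Dotted lines mark -1 and 1, and the members (1 of 36 is not shown) lie between -0.76 and 0.65.

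Col8a1 had the largest difference of the members, with 292 counts in pup 1 and 551 in pup 3, and intervals of 2.18 to 2.75 TPM and 3.92 to 4.63 TPM. Lama2 lay farthest the other way at 0.65, but its intervals of 1.76 to 3.62 TPM in pup 1 and 1.48 to 2.93 TPM in pup 3 overlapped. Lama2 counts were 240 (pup 1) and 274 (pup 3), and its coding transcript was at 0.98 and 0.95 TPM, so that the higher gene level of pup 1 was seen on the 643-base retained intron (1.35 and 0.05 TPM) and not on the coding transcript. Beside these, 7 of 8 endothelial markers and 9 of 11 meningeal fibroblast markers with 100 counts or more were higher in pup 1, none by more than 1. This lean was not particular to those lists. Midbrain markers (6 higher in pup 1 and 2 in pup 3) and basement membrane partners (10 and 2) had it too. Neuronal markers (4 and 4) and procollagen processing genes (4 and 6) did not. Only 2 of the choroid plexus and ependyma markers had 100 counts or more, and both were higher in pup 3. These were Otx2 (50.3 TPM in pup 1, 51.2 in pup 3) and Foxj1 (8.17 and 10.3). The list summed to 69.7 TPM in pup 1 and 75.4 TPM in pup 3, most of it from Otx2, so the sum says little about the other markers. Only 4 of the 8 reached 1 TPM in each pup. Kl (0.41 and 0.33), Clic6 (0.37 and 0.60) and Kcne2 (0.76 and 0.49) were under 1 TPM in both pups. Markers of this list under 100 counts went both ways, with Ttr at 0.85 and 5.16 TPM and Tmem212 at 5.26 and 4.04 TPM. The part of these cell types in the members' differences was not tested.

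Reads could be confused with those of other genes for a few members. On the opposite strand, 21 members are overlapped by another gene, and for 6 of them that gene reached 1 TPM in each pup: Col4a1 and Col4a2 with each other, Col18a1 with Slc19a1 (38.0 TPM in pup 1, 37.2 in pup 3), Col10a1 with Nt5dc1 (1.25 and 2.20), Col4a3 with C430014B12Rik (1.17 and 1.06) and Lamb3 with G0s2 (5.55 and 4.97) and Hsd11b1 (2.94 and 2.39). These overlaps are of whole gene spans, introns included, and overlap of exons was not read. Of these 6 members only Col4a3 had counts that were not whole. The strand setting of the counting is not stated, so reads from any shared exons cannot be assigned to a strand here. Counts were whole in both pups (within 0.005) for 51 members, the exceptions being Col4a3, Col5a1, Lamc3 and Col9a3.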

How the data were processed

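Total RNA from the midbrains of 2 newborn mice was sequenced, 1 library an animal; the labels name mirVana extraction, a SMARTer Ultra Low kit manual, molecules above 200 nt, an input of 10 ng and 2 spike-in references. A deposited text record gives build mm10 and GENCODE M4; program and strand setting are not given in the sources read. The authors deposited, per gene and transcript, expected counts (estimated reads, not scaled), TPM (scaled over every feature, spike-ins included) and FPKM, with posterior mean TPM and bounds of a credibility interval of unstated level. Each transcript's percent of its gene's TPM was also deposited by the authors.

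Names, biotypes and coordinates came from GENCODE M21 (same build), matched on identifiers without version, and 256 of 260 member transcripts matched. Log2 ratios used TPM + 0.1. With 2 animals the smallest p of a sign-flip test is 0.5, and no p is given. Separate pups are named in the labels, and across 17846 genes the edgeR coefficient of variation between them was 9.28%. Expected counts, rounded to integers, entered edgeR 4.0.16 (TMM factors and that dispersion) and DESeq2 1.42.0 (size factors). A value of 0.5 was added to scaled counts before taking log2. Other tools were R 4.3.3, Python 3.11.15, numpy 2.4.6, SciPy 1.17.1, pandas 2.3.3 and matplotlib 3.10.9. The pup difference was tested on simulated data, drawn with the dispersion of these 2 libraries and the gene lengths of pup 1 for both. Such a test checks the calculation only. FPKM served as an alternative only.

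The members and lists were chosen with earlier results of these data known, and the midbrain markers and the near-complete coding transcripts after the values were seen. By the rule for named genes, the 3 highest and the lowest member of each class are given (other members are added), with all pairs and, of each partner list, the 3 highest and the lowest. Coding stretches are shown in place of protein stretches, which were not read here. The values of 1 member are not reported here; it stays in the counts and sums over members.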

Additional observations from a re-analysis of the deposited data

How the results depend on the processing

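The number of members at 1 TPM or more was 39 and ran from 29 (2 TPM) to 44 (0.5 TPM), with 32 at the same number in FPKM and 34 on near-complete coding transcripts, an alternative chosen after seeing the data. The members' share of protein-coding TPM, 0.0621%, was 0.0645% with posterior means, 0.164% of expected counts not divided by length and 0.0642% on near-complete coding transcripts, and 0.0619% to 0.0624% with either animal left out. Of the pairs, 12 were apart, 9 to 12 over all settings and 10 to 12 with either animal left out. The rule was looser in 2 of these readings. On coding transcripts the credibility intervals were not used, and with an animal left out the sign and SD conditions could not be applied. The calls lost were Col4a5 over Col4a6 (0.69 on coding transcripts), Col8a1 over Col8a2 (1.04 with a pseudocount of 1, 1.27 with posterior means), Col25a1 over Col23a1 (0.91 with a pseudocount of 1, 1.00 with posterior means, 0.66 on coding transcripts, 0.97 on pup 1 alone) and Lamb2 over Lamb1 (0.82 by counts, 0.84 on coding transcripts, 0.96 on pup 1 alone); the cause was not tested. No pair that was apart changed sign. Some pairs that were not apart did, such as Lamc1 over Lamb1 on coding transcripts (-0.10). The number of members past a pup difference of 1 was 0 under TMM, DESeq2 size factors, equal totals, a pseudocount of 1, minima of 10 and 1000 counts, no minimum and coding transcripts. The same transcript led in both pups for 32 of 37 members, for 31 by posterior means, for 37 by expected counts and for 18 of 18 members at 5 TPM or more, where fewer genes are read. No paired analysis was possible because there is 1 group of 2 animals and no contrast between conditions, and the pup difference and the leading transcripts cannot be read with an animal left out. Depth limits members near the lowest count of 4.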
